A study of Mus musculus with 6 samples.

Results

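The gene described here is Arc, 1 of 55385 genes counted in total RNA of mouse primary cortical neurons, taken by its symbol from the count of reads on the gene's own strand. The neurons came from cortices of day 18 embryos and were kept for 16 days in vitro, and every culture had received 2.5 uM AraC, which holds back dividing cells such as glia by blocking DNA synthesis, for 24 hours on day 2. The 3 libraries labelled activated came from cultures given KCl, which depolarises neurons, for 5 minutes, washed in fresh medium and harvested after 30 minutes in conditioned medium. The 3 libraries labelled control came from untreated cultures. The KCl concentration stands as 50 mM in one field of the labels and as 50 uM in another. The strain, and whether replicates were separate cultures or animals, are not given in the sources used here, and the p-values therefore cover no more than the spread among these 6 samples, which may be technical.

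Arc, also called Arg3.1, is an immediate early gene of excitatory neurons. Synaptic activity or depolarisation is known to switch on its transcription within minutes, with no need for new protein, and its mRNA travels into dendrites, where it is translated and decays fast. The protein binds endophilin and dynamin and speeds the endocytosis of AMPA receptors, the main fast glutamate receptors of the synapse. It descends from the Gag protein of a retrotransposon and can form capsid-like shells that hold RNA.

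The direction of Arc went against the labels. Arc stood at 46.3, 48.4 and 52.1 CPM (reads scaled to library size by the TMM method) in replicates 1, 2 and 3 labelled activated, against 179.6, 186 and 163 CPM in replicates 1, 2 and 3 labelled control. Every library labelled control was higher than every library labelled activated. The mean was 48.9 ± 2.92 CPM in the libraries labelled activated and 176 ± 11.8 CPM in those labelled control (SD, n = 3 each), so that Arc stood at 27.8% of its labelled control mean. The log2 fold change, activated over control, was −1.84 ± 0.07 (SE; edgeR quasi-likelihood test, adjusted p = 4.61e-09). Since Arc is known to rise with depolarisation, the libraries are called by their label in every comparison, and all directions depend on those labels. Of all 18132 genes in the test, 36.8% were called, 20.6% as lower and 16.2% as higher in the libraries labelled activated (adjusted p below 0.05), and 49% had no overlap between the values of the groups.

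Arc rested on many reads in every library. It received 778, 1346 and 1660 reads in replicates 1, 2 and 3 labelled activated, and 5083, 4390 and 5514 reads in replicates 1, 2 and 3 labelled control. The 9 ratios of a labelled control library to a labelled activated one ran from 3.13 to 4.01. A two-sided exact permutation test of the 6 CPM values gave p = 0.1, the smallest that 3 against 3 samples allow. Within groups the spread was larger than counting alone would give: the coefficient of variation was 5.97% in libraries labelled activated and 6.71% in those labelled control, where the mean read number gives a counting error of 2.82% and 1.42%. The 95% Poisson intervals, which cover counting error only, overlapped among all 3 libraries labelled activated (43.11 to 49.68, 45.8 to 51.0 and 49.59 to 54.63 CPM in replicates 1, 2 and 3). Among libraries labelled control, replicates 1 and 2 overlapped (175 to 185 and 180.4 to 191.5 CPM), and replicate 3 lay below both at 159 to 167 CPM.

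**Figure D1:**
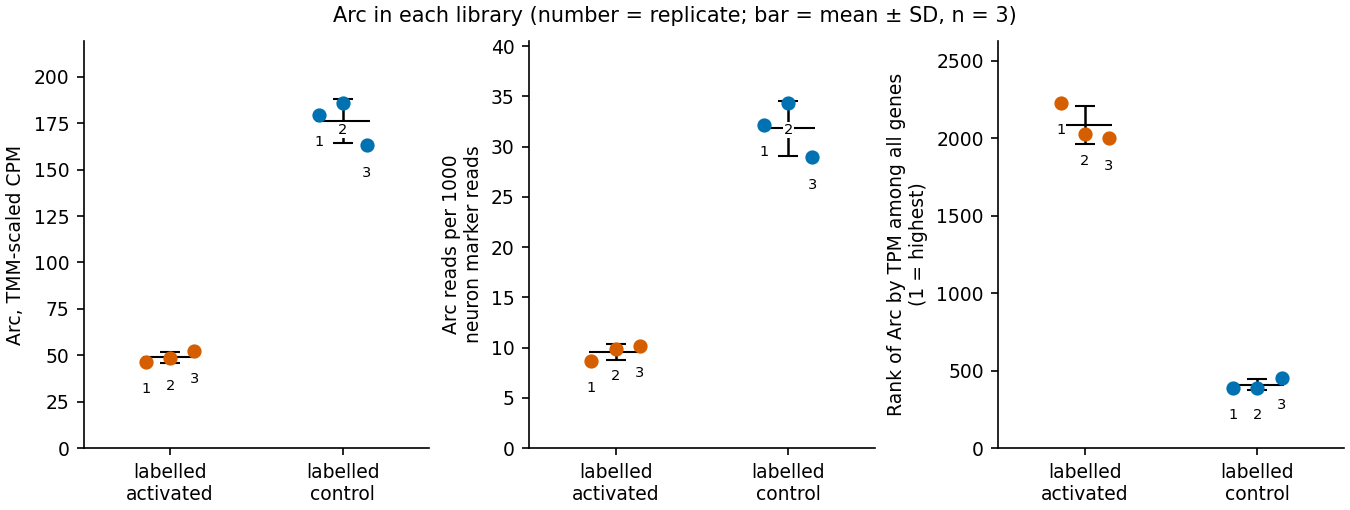
Arc in each library, as TMM-scaled CPM, as reads per 1000 reads of neuron marker genes and as its rank by TPM among all genes (rank 1 is the highest level). Points are libraries numbered by replicate, bars are the mean ± SD of 3; the libraries labelled activated lie between 46.3 and 52.1 CPM and those labelled control between 163 and 186 CPM.

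The gene lies on chromosome 15 of GRCm38 (mm10), from 74669083 to 74672570 on the minus strand (ENSMUSG00000022602.14, GENCODE release M21). Its coding sequence of 1188 bp, for 396 codons, sits within the first of 3 exons, and both introns, of 245 and 186 bp, lie in the 3′ untranslated region of 1671 bp. Introns at that place leave exon junction complexes behind the stop codon, which is known to expose Arc mRNA to nonsense-mediated decay once it is translated. No other annotated gene overlapped Arc on either strand. Reads on the opposite strand of Arc numbered 1, 2 and 2 in replicates 1, 2 and 3 labelled activated and 5, 6 and 5 in replicates 1, 2 and 3 labelled control, at most 0.148% of the reads on both strands. Over all genes that share was between 4.05% and 4.29%.

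Arc was among the better expressed genes of these cultures in the libraries labelled control. By TPM, a level per exon length, Arc ranked 2229, 2031 and 2000 among all genes in replicates 1, 2 and 3 labelled activated, against 388, 391 and 454 in replicates 1, 2 and 3 labelled control. Among protein-coding genes alone the TPM ranks were 2108, 1899 and 1899 in the libraries labelled activated and 359, 361 and 419 in those labelled control. By read number, 12.6% to 14.8% of the genes with at least 1 read had more reads than Arc in the libraries labelled activated, and 3.28% to 3.78% had more in those labelled control.

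No gene tested had a smaller p than Arc. The genes next in this order were Npas4, Egr4, Egr3 and Egr2, which encode activity-induced transcription factors, and Arl4d, a small GTPase. Arc had the sixth lowest log2 fold change, behind Fosb, an AP-1 family transcription factor (−2.39), Egr2 (−1.95), Egr4 (−1.91), the stress-response gene Gadd45g (−1.91) and Arl4d (−1.89), and just ahead of Npas4 (−1.84), Gm13889 (−1.78) and the centriole gene Stil (−1.68). The differences between Arc and its neighbours Arl4d and Npas4 were smaller than their standard errors, which were 0.07 for Arc, 0.10 for Arl4d and 0.07 for Npas4. The 1953 other genes with a mean log2 CPM at least that of Arc held none with as low a log2 fold change, and the next among them was Egr3 at −1.45. The ranks shifted with the libraries used: Arc ranked between 1 and 3 by p and between 6 and 12 by log2 fold change when 1 library was left out.

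**Figure D2:**
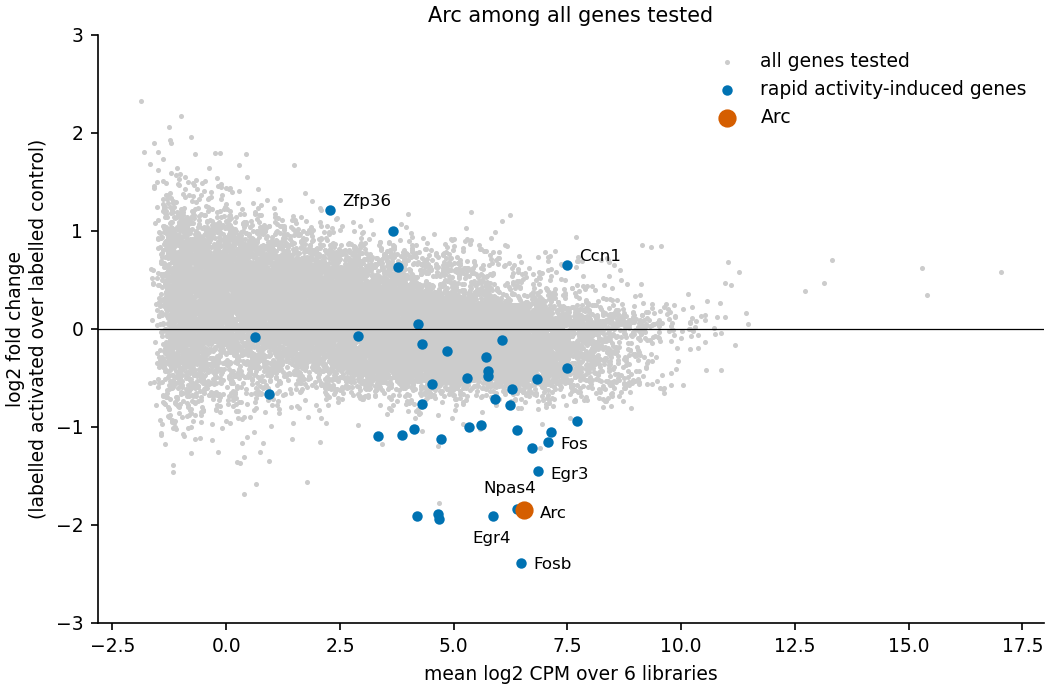
Log2 fold change of every gene tested, labelled activated over labelled control, against its mean log2 CPM over the 6 libraries. Grey points are all genes, blue points the rapid activity-induced genes and the orange point Arc, at −1.84; Npas4 lies beside it, and Fosb is lower at −2.39.

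The 10 genes with the profile most like that of Arc were sought among 15306 genes, by the root mean square difference of log2 CPM over the 6 libraries once each gene's own mean was set to 0. The likeness includes the difference between groups and is given as a description. Npas4, a transcription factor of neurons induced by calcium entry, stood closest at 0.019, where the median over all candidates was 0.937. Next came Egr4 (0.10), Arl4d (0.11) and Egr2 (0.12). Gm13889 (0.14), Stil (0.14), Gadd45g (0.15), C2cd4b (0.22), Sertad1 (0.23) and Egr3 (0.23) completed the 10. They lie on 10 different chromosomes, none of them chromosome 15.

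Arc and Npas4 kept almost the same ratio in every library. Npas4 (chromosome 19, 4984355 to 4990316, minus strand) had 710, 1187 and 1527 reads in replicates 1, 2 and 3 labelled activated, and 4566, 3996 and 4980 reads in replicates 1, 2 and 3 labelled control. Arc reads per Npas4 read were 1.10, 1.13 and 1.09 in replicates 1, 2 and 3 labelled activated and 1.11, 1.10 and 1.11 in those labelled control. The means were 1.11 ± 0.02 in libraries labelled activated and 1.11 ± 0.01 in those labelled control (SD, n = 3 each). The coefficient of variation of this ratio over the 6 libraries was 1.49%, below the counting error of the ratio in each library, which was 1.96% to 5.19%. Npas4 was picked for this likeness, so no test is given.

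The ratio of Arc to the other rapid activity-induced genes took 3 forms. For 34 of the 40 genes, every library labelled activated had fewer Arc reads per read of the gene than every library labelled control. For Npas4, Egr2, Egr4, Gadd45g and Arl4d the groups overlapped, and for Fosb alone the ratio was higher in every library labelled activated. Arc ranked 6 of 18132 genes by lowest log2 fold change, so a lower ratio is common to most genes tested. The share over all genes was not counted, so the number 34 describes Arc and is no result about these early genes. Arc reads per read of Egr1, a zinc finger transcription factor, were 0.311 to 0.341 in libraries labelled activated and 0.570 to 0.638 in those labelled control. Per read of Fos, another AP-1 subunit, they were 0.459 to 0.615 in libraries labelled activated and 0.835 to 0.917 in those labelled control. Per read of Fosb they were 1.01 to 1.44 in libraries labelled activated and 0.821 to 0.872 in those labelled control. Per read of Egr4 they were 1.54 to 1.73 in libraries labelled activated and 1.44 to 1.73 in those labelled control. These 4 genes were picked after their values were seen.

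**Figure D3:**
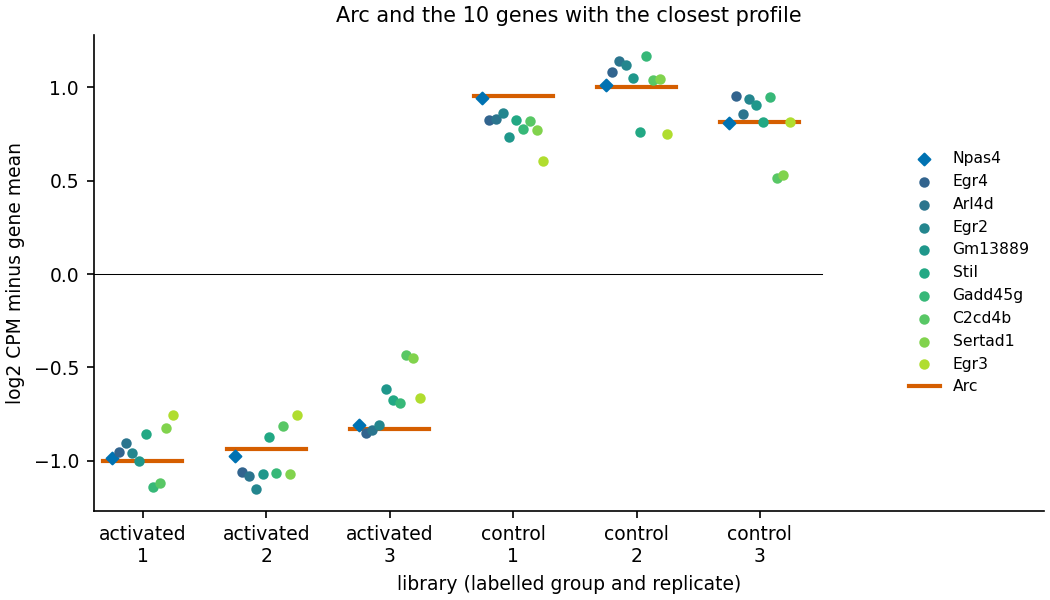
Log2 CPM minus the gene's own mean in each of the 6 libraries, for Arc (orange bars) and the 10 genes with the closest profile (points). Npas4, the blue diamonds, follows the Arc bar in every library, with a root mean square difference of 0.019.

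Sequence before the start of transcription is shown for the 3 genes closest to Arc in profile, since they moved with it across the libraries. The windows come from RefSeq (GRCm38.p6), in which 8 of the 10 genes were matched and Arc was not. Each runs 5′ to 3′ over the 250 bases before the start on the gene's own strand, with capitals marking the letters ACGTCA, on either strand, which form most of the cAMP response element bound by CREB (chr19:4989972-4990221 minus for Npas4, chr6:85513590-85513839 minus for Egr4, chr11:101665291-101665540 plus for Arl4d). The RefSeq start of Npas4 and the whole window printed for it lie inside the GENCODE span of the gene given above. By that annotation the Npas4 window does not precede the gene.
Npas4: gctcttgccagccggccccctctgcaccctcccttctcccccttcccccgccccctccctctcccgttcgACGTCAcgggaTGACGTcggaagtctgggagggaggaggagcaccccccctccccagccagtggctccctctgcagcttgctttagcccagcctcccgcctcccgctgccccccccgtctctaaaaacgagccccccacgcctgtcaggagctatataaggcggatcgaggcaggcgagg
Egr4: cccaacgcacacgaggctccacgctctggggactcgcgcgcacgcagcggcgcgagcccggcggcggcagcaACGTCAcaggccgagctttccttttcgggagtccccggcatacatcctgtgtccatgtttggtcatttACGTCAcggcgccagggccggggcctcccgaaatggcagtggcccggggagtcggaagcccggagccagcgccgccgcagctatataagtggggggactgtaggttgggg
Arl4d: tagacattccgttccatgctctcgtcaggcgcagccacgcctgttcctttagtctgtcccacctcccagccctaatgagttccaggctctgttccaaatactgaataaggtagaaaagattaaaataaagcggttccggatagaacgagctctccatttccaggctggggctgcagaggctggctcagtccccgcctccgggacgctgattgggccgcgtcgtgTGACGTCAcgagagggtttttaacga

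The core ACGTCA occurred in these 250 bases in 4 of the 8 matched genes (Npas4, Egr4, Arl4d and Egr2), where 7.29% of 27025 genes in the table held it in at least 1 window. In Arl4d the match lies within the full element TGACGTCA, on whose strands it is read at overlapping places; 1.77% of all genes held the full element. A CArG box, the site of serum response factor, occurred in Egr2, and 1.62% of all genes held it. The exact letters TATAAA on the gene's own strand occurred in Gadd45g, and 8.94% of all genes held them. Near matches, such as tatataag in the windows printed for Npas4 and Egr4, were not counted. The core was chosen after the windows had been seen, and these matches are a description.

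Rapid activity-induced genes, the primary response that Arc belongs to, were mostly lower in the libraries labelled activated. All 40 such genes other than Arc were tested: 30 fell, 4 rose and 6 did not pass the threshold, and their median log2 fold change was −0.74, where the median of all genes tested was 0.04 and 20.6% were called lower. Besides the genes above, Junb (−1.22), Fos (−1.16), the nuclear receptor Nr4a1 (−1.05) and Egr1 (−0.94) fell. The 4 that rose were Zfp36, whose protein destabilises mRNAs with AU-rich ends (1.21), Maff, of the small Maf family (1.0), the matrix protein gene Ccn1 (0.65) and Ier3 (0.63). Ordered by mean TPM together with these 40 genes, Arc ranked 12 in libraries labelled activated, at 43.1 ± 4.38 TPM, and 7 in those labelled control, at 179 ± 11.6 TPM (SD, n = 3 each). In libraries labelled control its neighbours in that order were Nr4a1, at 179 TPM, and Egr4, at 164 ± 15.7 TPM, both within their spread of Arc. Arc took 2.43% to 2.79% of the reads of these 41 genes in libraries labelled activated and 4.94% to 5.32% in those labelled control.

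Arc also belongs to the early genes whose products act at the synapse rather than on transcription. Of 11 others, 4 fell, 1 rose and 6 did not pass (median log2 fold change −0.28), where 20.6% of all genes were called lower and 16.2% higher. Those that fell were Rgs2, a regulator of G-protein signalling (−1.21), Plk2, a kinase of synaptic scaling (−0.91), the postsynaptic scaffold gene Homer1 (−0.74) and the GTPase gene Rheb (−0.45). Plat, the tissue plasminogen activator, rose (0.40). Without activated replicate 3, 8 of the 11 fell. Rgs2 had the lowest of the 11 log2 fold changes.

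Transcriptional regulators of Arc were lower in part. Of 19 regulators, 11 fell, 1 rose and 7 did not pass (median log2 fold change −0.19), where 20.6% of all genes were called lower and 16.2% higher. Srf, which encodes serum response factor, stood at 22.6 CPM in libraries labelled activated and 32.1 CPM in those labelled control (log2 fold change −0.52). The MEF2 genes Mef2c (−0.48), Mef2a (−0.34) and Mef2d (−0.33) fell too, as did Nelfcd (−0.40), a subunit of the complex that pauses RNA polymerase II. Elk3, a partner of serum response factor, rose (0.83). The number that fell was 7 without control replicate 3 or with a filter of 1 CPM in 3 libraries, and 5 with libraries scaled to neuron markers. Of 15 receptors and kinases that signal to Arc, 6 fell, 1 rose and 8 did not pass (median −0.14), and with libraries scaled to neuron markers 4 rose. Among those that fell were the MAP kinase pathway genes Map2k1 (−0.52) and Mapk3 (−0.33), the protein kinase A gene Prkaca (−0.50) and the calmodulin kinase gene Camk4 (−0.33). The one that rose, the calcium channel gene Cacna1d (0.25), lost its call without activated replicate 1 (0.24), activated replicate 2 (0.18) or control replicate 2 (0.20).

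Genes that handle Arc mRNA were lower in part. Of 12 genes of the exon junction complex and nonsense-mediated decay, 6 fell, none rose and 6 did not pass (median log2 fold change −0.25). By comparison, 20.6% of all genes tested were called lower and 16.2% higher. Those with the smallest p were Eif4a3 (−0.43) and Rbm8a (−0.46), core subunits of the junction complex, the junction factor Casc3 (−0.30) and the decay helicase gene Upf1 (−0.28). With libraries scaled to neuron markers 3 of the 12 fell, and Casc3 (−0.18) and Upf1 (−0.16) lost their calls. Of 10 proteins that bind dendritic mRNAs, 7 fell, 1 rose and 2 did not pass (median −0.36). Among these were Purb (−0.47) and Pura (−0.40), Fxr2, a relative of the fragile X protein (−0.37), and the transport gene Stau2 (−0.37). Cpeb1, a regulator of polyadenylation, rose (0.25), and lost its call without activated replicate 2 (0.22). It also lost its call with total counts (0.19), with no low-count filter (0.23) and in unstranded counts (0.21).

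Genes whose proteins work with Arc protein were described as endocytic partners and as postsynaptic or nuclear partners. Of 11 endocytic partners, 10 fell and 1 rose (median log2 fold change −0.49), where 20.6% of all genes were called lower and 16.2% higher. The groups did not overlap for any of the 11, where 49% of all genes had no overlap. The endophilin gene Sh3gl3 (−0.28) lost its call without activated replicate 2 (−0.27), control replicate 2 (−0.22) or control replicate 3 (−0.25). The brain endophilin gene Sh3gl2 (−0.66), the dynamin genes Dnm1 (−0.60) and Dnm3 (−0.53) and the AP2 adaptor genes Ap2s1 (−0.63), Ap2m1 (−0.51) and Ap2b1 (−0.49) fell, while the ubiquitous dynamin gene Dnm2 rose (0.40). Dnm1 stood at 348 CPM in libraries labelled activated and 527 CPM in those labelled control. Of 11 postsynaptic and nuclear partners, 5 fell, 3 rose and 3 did not pass (median 0.03). The WAVE complex gene Wasf1 (−0.47), the acetyltransferase gene Kat5 (−0.36) and the kinase gene Camk2b (−0.33), which encodes a binder of Arc at synapses, fell. The stargazin gene Cacng2 (−0.28) and the scaffold gene Dlg4 (−0.18) fell too. Camk2a (0.36) and the nuclear body gene Pml (0.55) were among those that rose. With libraries scaled to neuron markers, Cacng2 (−0.17) and Dlg4 (−0.07) had no call. Dlg4 also lost its call when any library except activated replicate 3 was left out (−0.15 to −0.20).

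No gene for the receptors that Arc removes from the synapse was called lower. Of the 4 AMPA receptor subunit genes, Gria2 (0.22) and Gria3 (0.19) rose, and Gria1 (−0.03) and Gria4 (0.01) did not pass. Among all genes tested, 20.6% were called lower and 16.2% higher. The signs of Gria1 and Gria4 turned under some alternatives. Gria2 lost its call with total counts only (0.15), and Gria3 lost its call without activated replicate 1 (0.19) or control replicate 2 (0.17). The 5 genes of Arc protein turnover fell: the ubiquitin ligase genes Stub1 (−0.49), Ube3a (−0.28) and Rnf216 (−0.18) and the kinase genes Gsk3b (−0.47) and Gsk3a (−0.41). Rnf216 lost its call when any library except activated replicate 3 was left out (−0.16 to −0.18). With libraries scaled to neuron markers Rnf216 (−0.06) and Ube3a (−0.17) had no call, and in unstranded counts Ube3a turned to 0.17.

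Other genes that descend from retrotransposon Gag were lower in part. Of 21 fixed, 16 passed the low-count filter, which left out Rtl1, Rtl3, Ldoc1, Pnma5 and Moap1, each with at most 11 reads in any library. Of the 16, 11 fell and 5 did not pass, where 20.6% of all genes were called lower. Their median log2 fold change was −0.44. Those with the smallest p were Rtl6 (−0.52), Pnmal2 (−0.60), Zcchc12 (−0.63) and Zcchc18 (−0.58). Peg10, an imprinted gene of the placenta, had the lowest value (−0.63). Each change was smaller than that of Arc. Arc ranked 13 of 18132 genes by absolute log2 fold change, so this holds for nearly all genes tested.

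**Figure D4:**
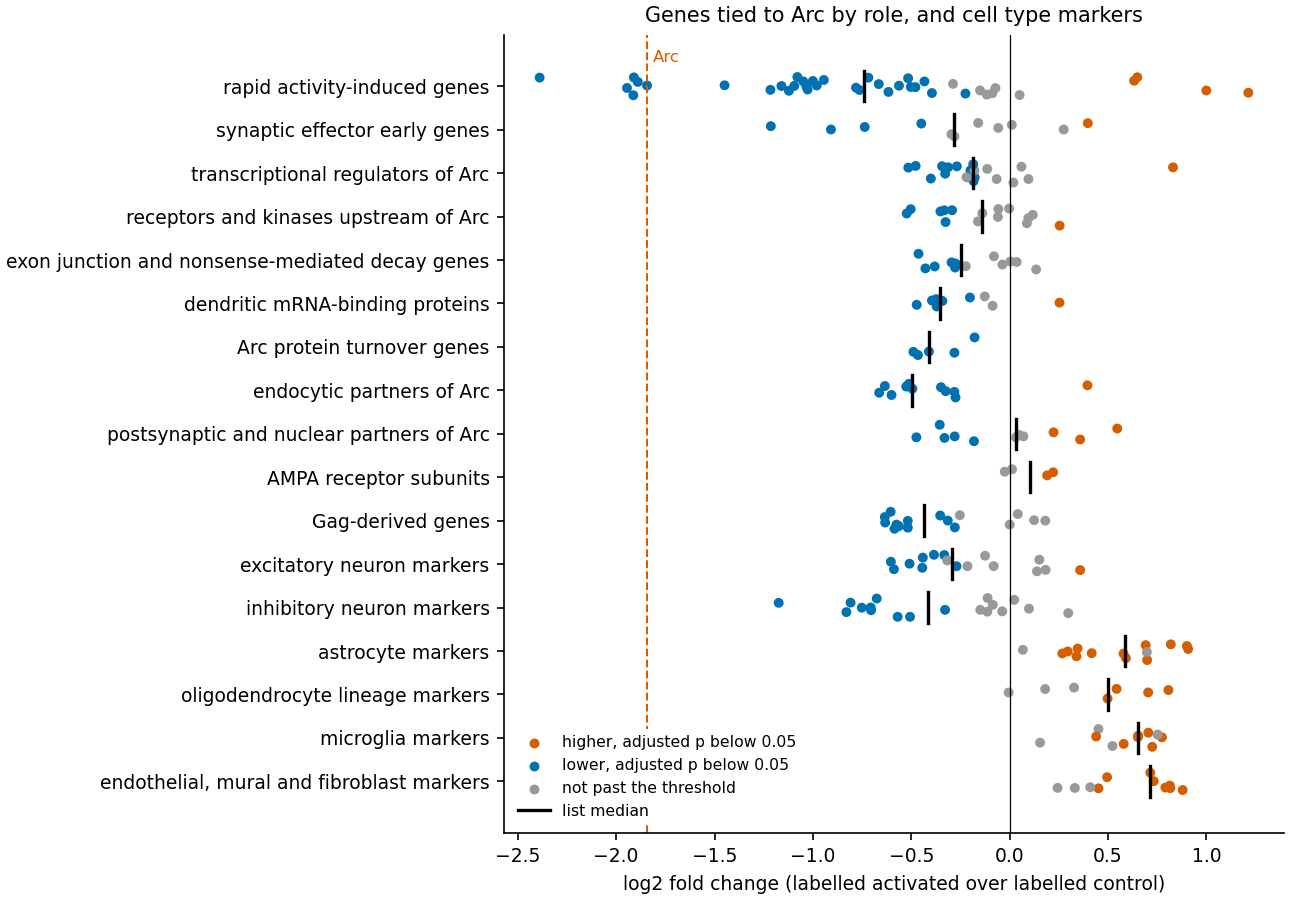
Log2 fold change, labelled activated over labelled control, of each tested member of the gene lists, with the list median as a black bar and Arc as the dashed line at −1.84. Orange points were called higher, blue points lower and grey points neither; endocytic partners lie mostly left of 0 and the glial and vascular markers right of it.

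Neighbouring genes on chromosome 15 had log2 fold changes between −0.37 and 0.09. The nearest tested genes were Jrk, 29.7 kb away (log2 fold change −0.09), Them6 (0.03) and Lynx1 (−0.08) on one side and Adgrb1, 79.6 kb away (0.09), Gm15387 (−0.37) and Ptp4a3 (−0.27) on the other. Of these only Ptp4a3, 910 kb away, passed the test (edgeR adjusted p = 0.00929), and it lost its call with libraries scaled to neuron markers (−0.16). Jrk averaged 9.31 ± 0.385 CPM in libraries labelled activated and 9.94 ± 0.218 CPM in those labelled control (SD, n = 3 each). Of 672 other genes tested on the chromosome, 24.1% were called lower, where 20.6% of all genes were, and the lowest log2 fold change was −1.20, of the kinase gene Pim3.

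Cell type markers differed between the groups as well, and their part in the result for Arc was not tested. The counts below stand beside 20.6% of all genes called lower and 16.2% called higher. Of 16 excitatory neuron markers, 8 fell and 1 rose (median log2 fold change −0.29), but their summed level was 2512 to 2706 CPM in libraries labelled activated and 2388 to 2506 CPM in those labelled control. The abundant members Camk2a (0.36) and Slc17a7 (0.14, not passed) had log2 fold changes above 0. Of 18 inhibitory neuron markers, 10 fell and none rose, with sums of 2383 to 2640 CPM in libraries labelled activated and 3021 to 3145 CPM in those labelled control. Of 14 astrocyte markers tested (15 fixed), 12 rose, with sums of 1926 to 2347 CPM in libraries labelled activated and 1460 to 1512 CPM in those labelled control. Oligodendrocyte lineage markers rose for 4 of 7 tested (12 fixed), at sums of 78.1 to 89.9 CPM in libraries labelled activated and 59.5 to 64.9 CPM in those labelled control. Microglia markers rose for 7 of 11 (13 fixed), at 64.6 to 123 CPM in libraries labelled activated and 53.1 to 73.2 CPM in those labelled control; only 1 of them rose without activated replicate 3 or without control replicate 3, and 4 rose without control replicate 1. Endothelial, mural and fibroblast markers rose for 8 of 11 (15 fixed), at 358 to 414 CPM in libraries labelled activated and 227 to 256 CPM in those labelled control. The defining markers Mog, Opalin and Cldn5 were at or near 0, with at most 2 reads in any library. Mitochondrial transcripts took 21.3% to 25.02% of gene reads in libraries labelled activated and 14.7% to 17.1% in those labelled control. In bulk RNA, fewer cells of a type and less RNA per cell cannot be told apart.

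Set against neurons alone, Arc remained lower in the libraries labelled activated. Per 1000 reads of the 34 excitatory and inhibitory neuron markers, Arc had 8.66, 9.88 and 10.2 reads in replicates 1, 2 and 3 labelled activated and 32.2, 34.4 and 28.9 reads in replicates 1, 2 and 3 labelled control. With libraries scaled to these markers its log2 fold change was −1.73 (edgeR adjusted p = 3.22e-09), while the median of all genes moved to 0.16. Per read of Slc17a7, the vesicular glutamate transporter of cortical excitatory neurons, Arc had 0.0896 to 0.102 reads in libraries labelled activated and 0.349 to 0.387 reads in those labelled control. Per read of Camk2a it had 0.0335 to 0.0443 reads in libraries labelled activated and 0.158 to 0.202 reads in those labelled control. The groups did not overlap on any of these scales. The ratio of labelled control to labelled activated means was 3.33 per neuron marker read, 3.95 per Slc17a7 read and 4.61 per Camk2a read. In CPM it was 3.60. Slc17a7 (0.14, not passed) and Camk2a (0.36) had positive log2 fold changes, whereas 8 of the 16 excitatory markers fell. Both were picked as denominators after their values were seen. Per read of a marker that fell, the ratio would be smaller.

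**Figure D5:**
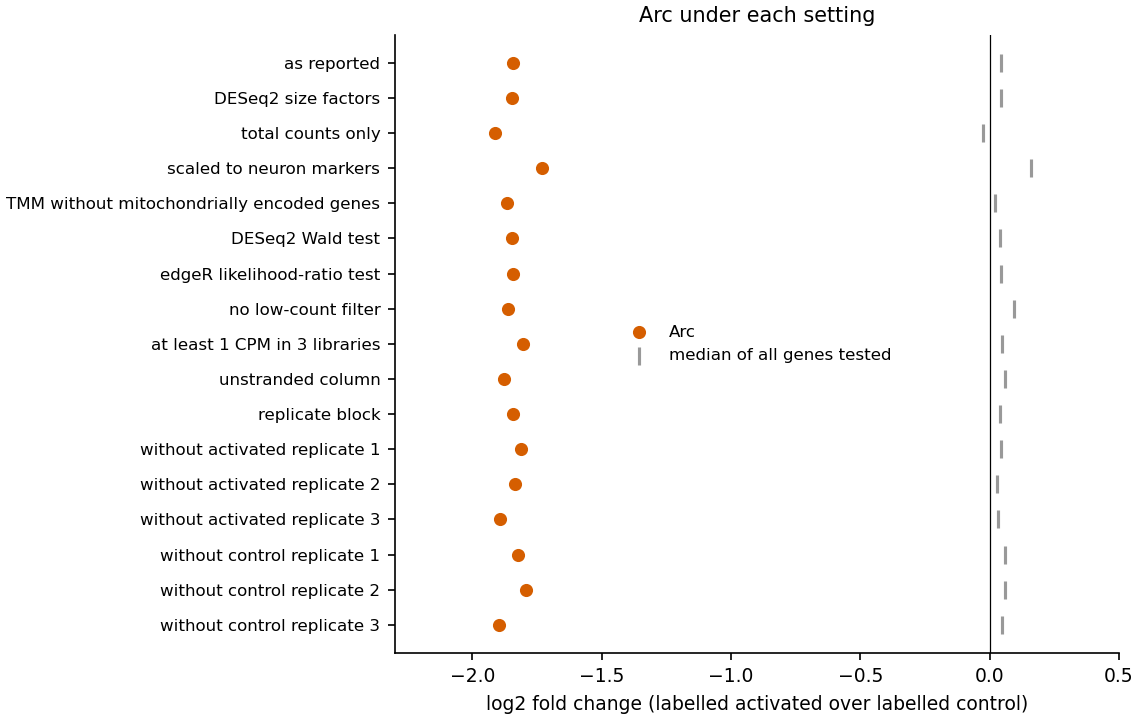
Log2 fold change of Arc, labelled activated over labelled control, under the reported fit and each alternative (orange points), beside the median of all genes tested in the same fit (grey marks). Arc lies between −1.91 and −1.73 throughout.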

How the data were processed

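Total RNA from Trizol extracts was freed of ribosomal RNA and made into strand-specific libraries, read as 150 bp pairs on a NovaSeq, per the labels' protocols. STAR 2.5.2b, mm10 and edgeR are named in the submitters' processing notes. The deposited files hold raw counts per gene, unstranded and for each strand; the annotation release and counting parameters are not given in the sources used here. Reverse-strand counts were used, 17752711 to 32919975 per library. The 4 lines naming no gene were left out of library sizes. Reads that met no annotated exon on the counted strand made up 28.3% to 37.3% in libraries labelled activated and 25.1% to 29.6% in those labelled control. Ambiguous reads made up 0.736% to 0.977% of any library. Both shares are of all reads, with unmapped and multimapping ones included.

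In edgeR 4.0.16 under R 4.3.3, filterByExpr (at least 10 reads, total 15) kept 18132 genes. TMM scaling, the quasi-likelihood F test and Benjamini-Hochberg adjustment followed, with a threshold of 0.05. The SE of a log2 fold change is its size divided by the root of its F value. Log2 CPM had a prior count of 2. TPM were computed from the exon union of GENCODE M21, in which 55144 of 55385 identifiers were found. Alternatives were DESeq2 1.42.0 (size factors, Wald test), total counts, neuron marker scaling, TMM without mitochondrial genes, the likelihood-ratio test, other filters, unstranded counts, a replicate block and each library left out.

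Named were the 10 genes closest to Arc in profile (mean log2 CPM of at least 0), 3 neighbours on each side, 3 genes on each side in the fold change order, up to 4 members per list by smallest p, and partners of Arc; Fosb, Fos, Junb, Egr1, Nr4a1, Maff, Ccn1, Zfp36, Ier3, Mef2a, Nelfcd, Mapk3, Plat, Cpeb1, Cacna1d, Peg10, Pim3 and the ratio denominators were added after their values were seen. Arc and the lists were chosen with earlier results of these data known. A few genes that the rule selects are not reported here.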

Additional observations from a re-analysis of the deposited data

How the results depend on the processing

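Arc kept its direction and its call under every alternative run. Its log2 fold change lay between −1.91 and −1.73 under 10 alternatives that kept all libraries, and between −1.90 and −1.79 when 1 library was left out. The largest edgeR adjusted p among all of them was 8.89e-07, with the replicate number as a block, where Arc stood at −1.84. Same-numbered libraries did not deviate together (r = −0.0144, −0.182 and −0.215 for numbers 1, 2 and 3, across genes). With 3 libraries per group, these values cannot decide whether the number marks a shared origin. The block left 3105 genes lower, against 3733 without it. Arc ranked 957 by log2 fold change with no low-count filter, where 34044 genes were tested. The exact permutation p of Arc was 0.1 on total counts and per neuron marker read too. With libraries scaled to neuron markers, 2085 genes were lower and 4742 higher, against 3733 and 2945 with TMM; the median of all genes moved to 0.16. With total counts 4576 were lower and 2089 higher. With 1 library left out the number lower ran from 2846 to 3908 and the number higher from 1975 to 3304. The cause was not tested. Direction turned for Jrk (0.030) and Lynx1 (0.030) under neuron marker scaling, and for Them6 with total counts (−0.041), in unstranded counts (−0.023), without activated replicate 3 (−0.020) and without control replicate 1 (−0.084). Direction also turned for Ube3a in unstranded counts (0.17). Gria1 turned under neuron marker scaling (0.088) and with a filter of 1 CPM in 3 libraries (0.013). Gria4 turned with total counts (−0.058), TMM without mitochondrial genes (−0.011), no low-count filter (−0.0074), unstranded counts (−0.021), without activated replicate 1 (−0.029) and without control replicate 1 (−0.0035), and with 1 library left out it ran from −0.029 to 0.052. With the replicate block 7 of 19 regulators of Arc fell, 1 AMPA receptor gene rose, and 1 microglia marker rose. With total counts 0 AMPA receptor genes and 3 microglia markers rose. Of the receptors and kinases, 2 rose with a filter of 1 CPM in 3 libraries and 0 with total counts, TMM without mitochondrial genes, unstranded counts or the replicate block. With neuron marker scaling Sh3gl1 (−0.16) and Sh3gl3 (−0.16) lost their calls. Read depth limits weak genes: activated replicate 1 was the shallowest library, at 17752711 gene reads.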
